A study of Mus musculus with 46 samples.

Results

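Interferon-stimulated genes are genes whose transcription is raised when type I or type II interferon reaches a cell. The set described here has 34 such genes, chosen by symbol: antiviral effectors, transcription factors, nucleic acid sensors, signalling regulators, GTPases and 1 chemokine. All 34 symbols were among the 21671 genes of the deposited table. All 34 passed the filter on low values (at least 1 eRPKM in at least 3 animals), as did 14566 genes in all. They were measured by RNA sequencing in 46 mouse libraries of the FVB strain, made from ribosomal RNA-depleted total RNA of primary liver or liver tumour. The study asked which genes an oncogenic Myc transgene activates or represses in liver tumours that depend on it.

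Myc-off tumours (8 libraries, 3 animal IDs) carried the tet-Myc and LAPtTA transgenes and were taken after 16 hours of food with doxycycline, which shuts the transgene off. MycVD tumours (11 libraries, 10 IDs) carried tet-MycVD and LAPtTA, where VD stands for the V394D substitution, which impairs the contact of Myc with the transcription factor Miz1. Myc tumours (16 libraries, 7 IDs) carried tet-Myc and LAPtTA with the transgene on. Control livers (11 libraries, 11 IDs) were normal livers for which the labels give no transgene. LAPtTA drives the transgenes in liver cells, and the labels name no switch in the immune or endothelial cells of the same tissue. Only the Myc-off animals received doxycycline, so that withdrawal of Myc and exposure to the drug cannot be told apart. Age and sex are not given in the labels. Tumours that share an ID were taken as tumours of 1 animal and averaged before any test. In bulk tissue, fewer cells of a type and less RNA per cell cannot be told apart.

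Levels are the authors' exonic RPKM (eRPKM), which are read counts scaled for exon length and library size, and fold changes are differences of log2(eRPKM + 0.5). A gene was called changed at an adjusted p under 0.05 in limma, fitted once over all 4 groups and all 14566 genes. The denominators recovered from the values were 3.25 to 10.37 M reads in Myc-off tumours, 6.182 to 10.56 M in MycVD tumours, 7.275 to 12.65 M in Myc tumours and 5.634 to 8.951 M in control livers. A member was covered by 5 to 3914 reads in a library. Gapdh was at 15 to 27.1 eRPKM in 8 libraries (2 MycVD, 5 Myc and 1 control) and at 35.2 to 99.2 eRPKM in the other 38, and without those 8 libraries the 34 genes had 19 calls higher and 0 lower in Myc-off against Myc tumours, 12 higher and 15 lower in Myc tumours against control livers, and 4 higher and 11 lower in MycVD against Myc tumours. The Myc row of the table did not check the labels, since its median was 4.82 eRPKM in Myc-off tumours, 6.84 in MycVD tumours, 7.30 in Myc tumours and 5.56 in control livers.

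Type I interferon, acting through Jak1 and Tyk2, leads to a complex that holds Stat2 and Irf9 and binds the interferon-stimulated response element (ISRE) in gene promoters. Type II interferon, signalling through Jak1 and Jak2, acts on genes with the gamma-activated sequence (GAS), and Irf1, itself induced in this way, binds elements related to the ISRE. Irf7, which many cells make only after a first round of signalling, amplifies the type I response. Ifit1, Isg15, the Oas and Mx genes and Rsad2 are classical targets of the type I arm, whereas Igtp, Irgm1, Irgm2, Gbp2, Irf1 and Cxcl10 respond strongly to the type II arm in mouse cells, although most genes of both kinds answer to either signal.

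The promoters of 26 of the 34 members were found in the RefSeq promoter table (GRCm38.p6, from 250 bases before to 50 bases after each start site). They were searched on both strands for an ISRE core, GAAA followed after any 2 bases by a second GAAA (on the reverse strand TTTC, any 2 bases and TTTC), for TTCNNNGAA, a GAS core, and for CACGTG, the E-box that Myc is known to bind. Some members had 2 promoters, and the 26 members had 30 in all. The ISRE letters were in the promoters of 15 of the 26 members (15 of the 30 promoters), against 3.44% of all 32851 promoters. The GAS letters were in 6 of the 26 (6 of the 30 promoters), against 8.30% of all promoters. The E-box was in 1 of the 26 (1 of the 30), that of Trim25, against 7.15%. The windows printed here show both kinds of element in members that differ in whether they passed the test between Myc-off and Myc tumours, with the matches in capitals and each sequence read 5′ to 3′ on the gene's own strand. The coordinates are those of GRCm38.p6. Igtp, Irgm2, Irf1, Stat2 and Ifit1 rose in Myc-off tumours, and Isg15 and Rsad2 did not pass the test there.
Igtp, chr11:58199456-58199555, plus strand: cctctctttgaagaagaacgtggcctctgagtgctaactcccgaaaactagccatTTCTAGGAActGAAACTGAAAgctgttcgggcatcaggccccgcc
Irgm2, chr11:58214847-58214946, plus strand: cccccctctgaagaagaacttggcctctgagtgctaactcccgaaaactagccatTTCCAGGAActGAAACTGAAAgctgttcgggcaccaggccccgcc
Irf1, chr11:53769874-53769973, plus strand: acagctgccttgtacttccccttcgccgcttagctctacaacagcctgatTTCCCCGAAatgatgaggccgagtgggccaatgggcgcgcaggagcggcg
Stat2, chr10:128270248-128270327, plus strand: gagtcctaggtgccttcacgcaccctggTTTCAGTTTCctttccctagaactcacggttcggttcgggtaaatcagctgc
Ifit1, chr19:34640739-34640838, plus strand: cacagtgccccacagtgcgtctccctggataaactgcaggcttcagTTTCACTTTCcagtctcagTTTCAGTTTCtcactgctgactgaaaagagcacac
Isg15, chr4:156200839-156200938, minus strand: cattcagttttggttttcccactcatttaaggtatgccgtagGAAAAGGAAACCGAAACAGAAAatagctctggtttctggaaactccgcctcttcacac
Rsad2, chr12:26456513-26456612, minus strand: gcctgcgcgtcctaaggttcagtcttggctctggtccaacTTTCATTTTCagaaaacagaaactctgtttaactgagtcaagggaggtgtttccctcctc

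The Igtp and Irgm2 windows, which come from neighbouring genes on chromosome 11, had the same base at 94 of 100 positions, and both hold a GAS match followed by an ISRE match. In Igtp these began 45 and 34 bases before the start site, and in Irgm2 75 and 64 bases before it. The Irf1 window holds a GAS match and no ISRE match. The Stat2 and Rsad2 windows hold 1 ISRE match each, the Ifit1 window has 2 on the reverse strand, and in Isg15 3 overlapping matches make a single run. ISRE letters were in the promoters of 9 of the 14 members with an entry that rose in Myc-off tumours and of 6 of the 12 that did not pass the test. GAS letters were in those of 3 of the 14 and 3 of the 12. The latter were Oas1a, Bst2 and Ifit2, which are not printed, whereas the printed windows with a GAS match are all of genes that rose. Of the members, Bst2 had a GAS match that overlaps an ISRE match. A match describes the letters and not a bound site.

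Within 16 hours of doxycycline, 18 of the 34 genes were higher in Myc-off tumours than in Myc tumours and none was lower by limma with Benjamini-Hochberg adjustment. Over all genes tested, 22.8% were called higher and 28% lower in the same comparison. The median log2 fold change was 0.71 over the 34 genes and 0.00 over all genes tested. In 19 of the 34 the 3 Myc-off animals all lay above the 7 Myc animals, against 19.6% of all genes, and in none did they all lie below, against 25.9%. The 16 genes that did not pass the test were at log2 fold changes between -0.40 and 0.73. At an unadjusted p under 0.05 none of the 34 was lower either, and 4 alternative settings called 1 gene lower, Bst2 in 3 of them and Dhx58 in the other.

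**Figure D1:**
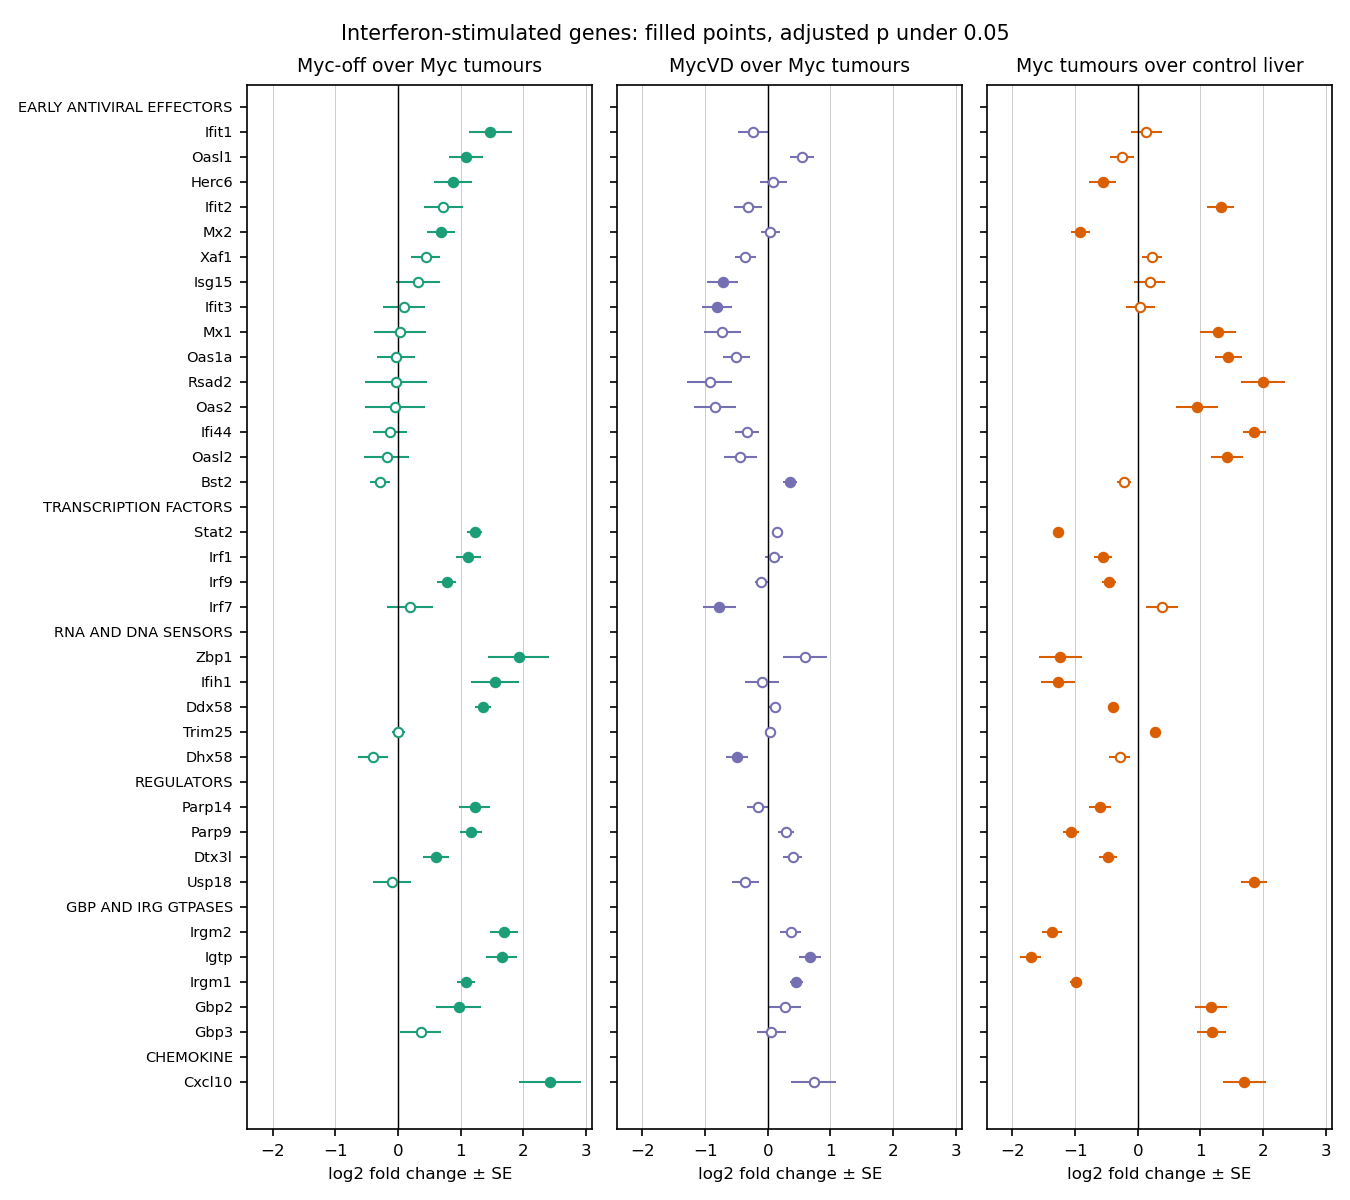
Log2 fold change (horizontal axis, log2 of eRPKM + 0.5) of each of the 34 genes, ordered down the page by role, in Myc-off over Myc tumours, MycVD over Myc tumours and Myc tumours over control livers; bars are standard errors and filled points passed the adjusted p of 0.05. In the left panel 18 points are filled and all lie right of 0, while the right panel has 12 filled points right and 14 left of 0.

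Among the transcription factors, 3 of 4 rose in Myc-off tumours, where 22.8% of all genes were called higher. Stat2, a subunit of the type I complex, was at 26.6, 34.8 and 41.0 eRPKM (lowest, median and highest library) in Myc-off tumours and at 8.19, 14.3 and 19.4 eRPKM in Myc tumours. The groups did not overlap, and the log2 fold change was 1.23 ± 0.12 (SE, adjusted p = 5.19e-10). Irf1, the factor induced by type II interferon, was at 29.6, 40.2 and 54.6 eRPKM in Myc-off tumours and at 14.6, 19.2 and 23.0 eRPKM in Myc tumours. It rose by 1.13 ± 0.20 (adjusted p = 2.86e-05), again with no overlap of libraries. Irf9, the DNA-binding subunit of the type I complex, was at 15.1, 17.5 and 21.4 eRPKM in Myc-off tumours and at 6.96, 10.3 and 14.4 eRPKM in Myc tumours, with a log2 fold change of 0.78 ± 0.15 (adjusted p = 7.05e-05). Irf7 stood apart from these 3 genes. It was at 16.6, 23.1 and 38.4 eRPKM in Myc-off tumours and at 11.8, 20.8 and 29.3 eRPKM in Myc tumours, so that the groups overlapped over most of their range, and its log2 fold change of 0.19 ± 0.36 did not pass the test (adjusted p = 0.69).

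**Figure D2:**
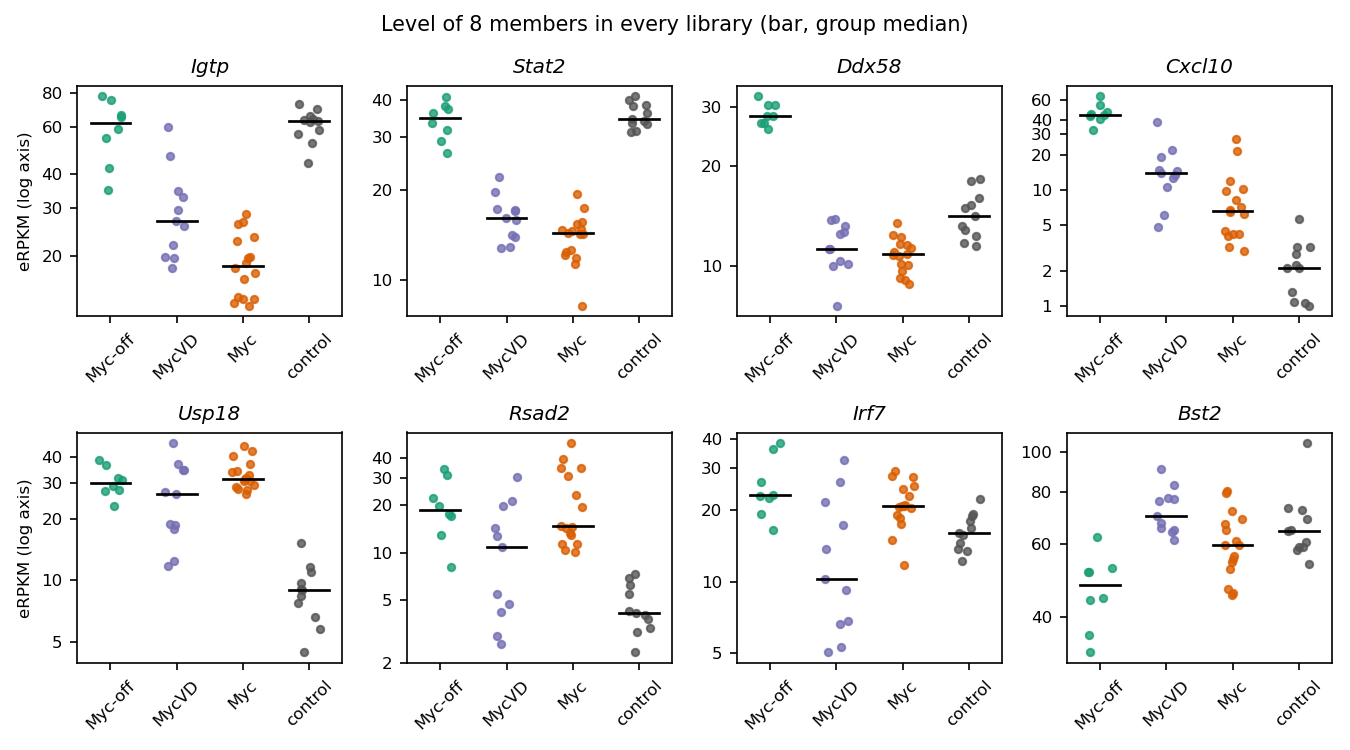
Level (eRPKM, log axis) of Igtp, Stat2, Ddx58, Cxcl10, Usp18, Rsad2, Irf7 and Bst2 in every library of Myc-off tumours, MycVD tumours, Myc tumours and control livers; each point is a library and the bar is the group's median. The medians of Stat2, as deposited, are 34.8 eRPKM in Myc-off tumours and 34.5 in control livers and those of Igtp 62.1 and 63.1, whereas Usp18 and Rsad2 are higher than in control livers in both Myc-off and Myc tumours.

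The sensors divided in a similar way, with 3 of 5 higher in Myc-off tumours, against 22.8% of all genes. Ddx58, which encodes the cytoplasmic RNA sensor RIG-I, was at 25.7, 28.2 and 32.3 eRPKM in Myc-off tumours and at 8.80, 10.8 and 13.5 eRPKM in Myc tumours. Every Myc-off library was thus above every Myc library, with a log2 fold change of 1.36 ± 0.13 (adjusted p = 4.09e-10). Ifih1, which encodes the long double-stranded RNA sensor MDA5, was at 7.88, 13.7 and 20.4 eRPKM in Myc-off tumours and at 3.23, 4.55 and 7.16 eRPKM in Myc tumours and rose by 1.55 ± 0.38 (adjusted p = 0.00106). Zbp1, a sensor of left-handed nucleic acids, rose by 1.93 ± 0.49 (adjusted p = 0.00138), but its libraries ran from 1.24 to 18.2 eRPKM in Myc-off tumours, against 0.514 to 2.80 eRPKM in Myc tumours, and so overlapped. Dhx58, the third RIG-I-like receptor, and Trim25, a ubiquitin ligase of the RIG-I pathway, did not pass the test, at -0.40 ± 0.24 (adjusted p = 0.168) and 0.01 ± 0.10 (adjusted p = 0.949).

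Among the guanylate-binding and immunity-related GTPases, which act on the vacuoles of intracellular pathogens, 4 of 5 rose in Myc-off tumours, against 22.8% of all genes. Igtp was at 35.2, 62.1 and 77.7 eRPKM in Myc-off tumours and at 13.1, 18.4 and 28.7 eRPKM in Myc tumours. Its 3 Myc-off animals averaged 73.2, 59.7 and 45.5 eRPKM, each above all Myc libraries, and the log2 fold change was 1.65 ± 0.24 (adjusted p = 1e-06). Irgm2, whose promoter window nearly repeats that of Igtp, was at 27.3, 48.3 and 71.7 eRPKM in Myc-off tumours and at 9.37, 14 and 21.2 eRPKM in Myc tumours, and rose by 1.70 ± 0.23 (adjusted p = 2.35e-07). Irgm1 rose by 1.09 ± 0.14 (adjusted p = 1.64e-07) with the tightest Myc-off values of the 3 immunity-related GTPases, at 56.4 to 66.6 eRPKM, against 22.8 to 35.3 eRPKM in Myc tumours. Gbp2 rose by 0.97 ± 0.36 (adjusted p = 0.0242), and Gbp3 was at 0.37 ± 0.33 (adjusted p = 0.375). The call of Gbp2 was lost without Myc-off ID150584 (0.77, adjusted p = 0.132) and without ID151964 (1.02, adjusted p = 0.0524), each of which left 2 Myc-off animals.

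Cxcl10, a chemokine that draws T cells bearing Cxcr3, had the largest log2 fold change of the 34 genes. It was at 32.9, 44.6 and 63.7 eRPKM in Myc-off tumours and at 3.0, 6.57 and 27.2 eRPKM in Myc tumours, so that the lowest Myc-off library lay above the highest Myc library. The log2 fold change was 2.43 ± 0.50 (adjusted p = 0.000137). The signalling regulators followed with 3 of 4 higher, against 22.8% of all genes. Parp9 and Dtx3l, which form a ubiquitin-modifying pair, were at 1.16 ± 0.18 (adjusted p = 2.61e-06) and 0.61 ± 0.21 (adjusted p = 0.0146), and Parp14, another ADP-ribosyltransferase, was at 1.23 ± 0.25 (adjusted p = 0.000104). The call of Dtx3l was lost with depth as a covariate (0.34, adjusted p = 0.245) and without ID150584 (0.46, adjusted p = 0.11) or ID151964 (0.58, adjusted p = 0.0546). Usp18, the protease that removes Isg15 from proteins and dampens the type I receptor, was at 23.0, 29.9 and 38.7 eRPKM in Myc-off tumours and at 26.4, 31.3 and 45.5 eRPKM in Myc tumours. The Usp18 values overlapped almost entirely (-0.10 ± 0.30, adjusted p = 0.817).

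The early antiviral effectors had the smallest share of calls among the roles, with 4 of 15 higher, none lower and 11 not called. Their share of higher genes was close to the 22.8% of all genes, where 28% were called lower. Ifit1, which binds viral RNA with foreign cap ends, was at 15.1, 22.7 and 33.1 eRPKM in Myc-off tumours and at 4.88, 8.60 and 12.4 eRPKM in Myc tumours, and rose by 1.48 ± 0.35 (adjusted p = 0.000643). Oasl1, Herc6 and Mx2 were the other 3, at 1.09 ± 0.27 (adjusted p = 0.00134), 0.88 ± 0.31 (adjusted p = 0.0167) and 0.69 ± 0.22 (adjusted p = 0.00945). Without Myc-off ID150584 the calls of Herc6 (0.65, adjusted p = 0.127) and Mx2 (0.59, adjusted p = 0.0563) were lost. Ifit2, a relative of Ifit1, was at 0.73 ± 0.31 and just missed the threshold (adjusted p = 0.0518). Rsad2, which makes a nucleotide that stops viral polymerases, was at 8.13, 18.6 and 34 eRPKM in Myc-off tumours and at 10.2, 14.7 and 49.7 eRPKM in Myc tumours. Isg15, a ubiquitin-like modifier, was at 12.1, 28.9 and 33.5 eRPKM in Myc-off tumours and at 14.2, 22.7 and 44.2 eRPKM in Myc tumours. For both genes the Myc libraries spanned the Myc-off range almost wholly, and the log2 fold changes were -0.03 ± 0.50 (adjusted p = 0.964) for Rsad2 and 0.32 ± 0.35 (adjusted p = 0.468) for Isg15. Ifit3, Mx1, Oas1a, Oas2, Oasl2, Ifi44 and Xaf1 were at log2 fold changes between -0.18 and 0.44. Bst2, a membrane protein that tethers virions, was at 32.8, 47.8 and 62.3 eRPKM in Myc-off tumours and at 45.2, 59.6 and 80.5 eRPKM in Myc tumours (-0.29 ± 0.15, adjusted p = 0.124). Reads of Ifit3, Oas1a and Gbp family genes may be shared with near-identical copies, so that their values are uncertain.

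In Myc tumours against control livers the same 34 genes went in both directions, with 12 higher, 14 lower and 8 not called, where 50.4% of all genes were called higher and 29.7% lower. The median log2 fold change was -0.09 over the 34 genes and 0.28 over all genes. The all-gene median moved to 0.05 under median-ratio scaling of the libraries, and the share of higher calls among all calls moved to 52.0%, against 62.9% as deposited. On that scale 11 of the 34 were higher and 17 lower, with a median of -0.33. Animals did not overlap in 9 genes that lay above and 9 that lay below the control livers, against 35.1% and 18.7% of all genes. The comparison shares the Myc tumours with that of Myc-off tumours, so that the values of each are set side by side here and no overlap of the calls is given.

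The lower genes included 3 of 4 transcription factors and all 3 immunity-related GTPases, against 29.7% of all genes. Igtp was at 13.1, 18.4 and 28.7 eRPKM in Myc tumours and at 44.2, 63.1 and 72.9 eRPKM in control livers (-1.71 ± 0.17, adjusted p = 9.85e-11), and in Myc-off tumours its log2 fold change was -0.06 ± 0.23 against control livers (adjusted p = 0.847). Stat2 was at 8.19, 14.3 and 19.4 eRPKM in Myc tumours and at 31.4, 34.5 and 41.1 eRPKM in control livers (-1.27 ± 0.08, adjusted p = 6.94e-15), with no overlap of libraries, and in Myc-off tumours it was at -0.04 ± 0.11 against control livers (adjusted p = 0.779). For both genes the Myc-off libraries therefore lay within or close to the range of control livers after 16 hours of doxycycline, on the deposited scale. Under median-ratio scaling the medians of Stat2 were 35.4 eRPKM in Myc-off tumours and 40.3 in control livers, and those of Igtp 59.7 and 71.6. Irgm2 (-1.37 ± 0.16, adjusted p = 2.99e-09), Irgm1 (-0.99 ± 0.10, adjusted p = 1.58e-10), Ifih1 (-1.27 ± 0.27, adjusted p = 7.99e-05), Zbp1 (-1.24 ± 0.34, adjusted p = 0.00155) and Parp9 (-1.06 ± 0.13, adjusted p = 4.99e-09) were also lower in Myc tumours. Irf1 and Irf9 were lower by smaller amounts, -0.56 ± 0.14 (adjusted p = 0.000775) and -0.46 ± 0.11 (adjusted p = 0.000267).

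The 12 higher genes in Myc tumours were 7 of the 15 antiviral effectors, 2 of the 5 GTPases, 1 regulator, 1 sensor and Cxcl10, and the share of effectors was close to the 50.4% of all genes called higher. Rsad2 was at 10.2, 14.7 and 49.7 eRPKM in Myc tumours and at 2.32, 4.14 and 7.28 eRPKM in control livers (1.99 ± 0.35, adjusted p = 5.58e-06). Its lowest Myc library lay above the highest control liver. Ifi44, an interferon-induced protein with a GTP-binding fold, was at 3.5, 5.47 and 7.26 eRPKM in Myc tumours and at 0.671, 1.08 and 2.31 eRPKM in control livers (1.86 ± 0.19, adjusted p = 2.13e-10). Usp18 was at 26.4, 31.3 and 45.5 eRPKM in Myc tumours and at 4.45, 8.93 and 15.1 eRPKM in control livers (1.86 ± 0.21, adjusted p = 2.07e-09), again without overlap. In Myc-off tumours these 3 genes were also above control livers, at 1.96 ± 0.47 for Rsad2 (adjusted p = 0.00067), 1.74 ± 0.26 for Ifi44 (adjusted p = 8.9e-07) and 1.76 ± 0.28 for Usp18 (adjusted p = 4.11e-06). Cxcl10 was at 3.0, 6.57 and 27.2 eRPKM in Myc tumours and at 1.00, 2.12 and 5.65 eRPKM in control livers (1.70 ± 0.35, adjusted p = 5.24e-05). Oas1a (1.45 ± 0.22, adjusted p = 3.87e-07) and Oasl2 (1.42 ± 0.25, adjusted p = 7.99e-06), of the oligoadenylate synthetase family, came next. Irf7 (0.39 ± 0.25, adjusted p = 0.164), Ifit1 (0.14 ± 0.24, adjusted p = 0.607), Isg15 (0.19 ± 0.25, adjusted p = 0.476) and Bst2 (-0.22 ± 0.11, adjusted p = 0.06) did not pass the test, and the signs of Ifit1 and Isg15 turned under median-ratio scaling and quantile normalisation, as did that of Bst2 under quantile normalisation. The call of Trim25 (0.28 ± 0.07, adjusted p = 0.000978) was lost under median-ratio scaling, where it was at 0.03.

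Against control livers, Myc-off tumours had 17 of the 34 genes higher and 2 lower, where 37.3% of all genes were called higher and 20.9% lower. The median log2 fold change was 0.60 over the 34 genes and 0.17 over all genes. Under median-ratio scaling 14 were higher and 2 lower, and among all genes the share of higher calls moved to 49.3%, against 64.1% as deposited. Cxcl10 was 17.5-fold higher on the scale of eRPKM + 0.5 (log2 fold change 4.13 ± 0.47, adjusted p = 8.64e-09). Gbp2 was at 17.5, 28 and 43.9 eRPKM in Myc-off tumours, 7.99, 14.6 and 19.4 eRPKM in Myc tumours and 2.39, 6.10 and 11.4 eRPKM in control livers, and thus was highest in Myc-off tumours and lowest in control livers (2.14 ± 0.34 for Myc-off tumours against control livers, adjusted p = 2.94e-06). Ifit2 was at 9.71, 12.8 and 19.7 eRPKM in Myc-off tumours, 5.15, 8.52 and 12.4 eRPKM in Myc tumours and 1.89, 3.4 and 4.16 eRPKM in control livers, in the same order of medians (2.05 ± 0.29, adjusted p = 6.14e-07). Ifit1, Ddx58 and Irf1 were higher in Myc-off tumours than in control livers by 1.62 ± 0.33 (adjusted p = 9.63e-05), 0.97 ± 0.12 (adjusted p = 6.22e-08) and 0.57 ± 0.19 (adjusted p = 0.0122). The 2 lower genes were Dhx58 (-0.69 ± 0.22, adjusted p = 0.00944) and Bst2 (-0.51 ± 0.15, adjusted p = 0.00355). Without Myc-off ID153344 the call of Bst2 was lost (-0.36, adjusted p = 0.074), as was that of Irf1 without ID150584 (0.40, adjusted p = 0.14). Irf7 was at 0.58 ± 0.34 (adjusted p = 0.148), Isg15 at 0.52 ± 0.33 (adjusted p = 0.183) and Irf9 at 0.33 ± 0.14 (adjusted p = 0.0512), none of which passed the test.

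Few of the 34 genes, as of all genes, passed the test between the Myc alleles. In MycVD against Myc tumours 3 were higher and 4 lower, where 6.14% of all genes were called higher and 9.69% lower, and the median log2 fold change was -0.03 over the 34 genes and -0.05 over all genes. Of all calls 38.8% were higher as deposited and 49.9% under median-ratio scaling, where 4 of the 34 were higher and 1 lower. Irgm1 was at 30.1, 38.9 and 58.8 eRPKM in MycVD tumours, against 22.8, 28.6 and 35.3 eRPKM in Myc tumours. It rose by 0.45 ± 0.10 (adjusted p = 0.00262) and was the only member with all MycVD animals above all Myc animals, against 0.783% of all genes, and no member had them all below, against 1.32%. Igtp was at 18, 26.8 and 59.8 eRPKM in MycVD tumours, against 13.1, 18.4 and 28.7 eRPKM in Myc tumours (0.67 ± 0.17, adjusted p = 0.00749). Bst2 was at 61.2, 70.2 and 91.0 eRPKM in MycVD tumours, against 45.2, 59.6 and 80.5 eRPKM in Myc tumours (0.35 ± 0.11, adjusted p = 0.027). Igtp and Bst2 overlapped between the alleles. Irgm1 passed the test under every setting tried, whereas Igtp was lost with depth as a covariate (adjusted p = 0.0965) and Bst2 under 4 settings, with an adjusted p of up to 0.082.

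The 4 lower genes in MycVD tumours were Ifit3 (-0.81 ± 0.24, adjusted p = 0.0197), Irf7 (-0.77 ± 0.26, adjusted p = 0.0402), Dhx58 (-0.49 ± 0.17, adjusted p = 0.0452) and Isg15 (-0.72 ± 0.25, adjusted p = 0.0478). Irf7 was at 5.03, 10.3 and 32.7 eRPKM in MycVD tumours, against 11.8, 20.8 and 29.3 eRPKM in Myc tumours. The MycVD range thus reached both below and above that of Myc tumours. None of the 4 calls held with depth as a covariate, where the adjusted p was 0.264 for Ifit3, 0.44 for Irf7, 0.349 for Dhx58 and 0.297 for Isg15. With median-ratio scaling, without the filter on low values and with only the 2 groups fitted, the calls of Irf7, Dhx58 and Isg15 were lost and that of Ifit3 held. Without the 8 libraries of low Gapdh, which include MycVD ID133074 and ID133079, 11 of the 34 genes were lower, and leaving out 1 animal at a time gave 1 to 8 lower. Without ID133074 it was 8 and without ID133079 7, and without any of 10 other single animals it was 1. Stat2 (0.15 ± 0.08, adjusted p = 0.215), Irf1 (0.10 ± 0.15, adjusted p = 0.672), Irf9 (-0.10 ± 0.11, adjusted p = 0.554), Ifit1 (-0.24 ± 0.25, adjusted p = 0.554) and Cxcl10 (0.73 ± 0.35, adjusted p = 0.158) did not pass the test.

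Against control livers, MycVD tumours had 11 of the 34 genes higher and 15 lower, where 49.2% of all genes were called higher and 31.1% lower. The median log2 fold change was -0.21 over the 34 genes and 0.22 over all genes, and the share of higher calls among all genes moved to 51.0% under median-ratio scaling, against 61.3% as deposited. The genes with the largest rises were Cxcl10 (2.43 ± 0.31, adjusted p = 2.82e-08), Ifi44 (1.53 ± 0.17, adjusted p = 1.68e-09), Usp18 (1.5 ± 0.19, adjusted p = 2.11e-08), Gbp2 (1.44 ± 0.23, adjusted p = 1.03e-06), Gbp3 (1.24 ± 0.21, adjusted p = 2.89e-06) and Rsad2 (1.07 ± 0.32, adjusted p = 0.00282). The largest falls were those of Ifih1 (-1.36 ± 0.24, adjusted p = 7.2e-06), Stat2 (-1.11 ± 0.08, adjusted p = 1.32e-14), Igtp (-1.04 ± 0.15, adjusted p = 3.11e-07), Irgm2 (-1.01 ± 0.14, adjusted p = 1.66e-07), Mx2 (-0.88 ± 0.14, adjusted p = 1.22e-06) and Dhx58 (-0.78 ± 0.15, adjusted p = 2.2e-05). Stat2 was the 1 gene whose MycVD animals all lay below all control livers, against 14.7% of all genes, and Ifi44 the 1 gene whose MycVD animals all lay above them, against 25.8%. These values share the control livers with those of Myc tumours.

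**Figure D3:**
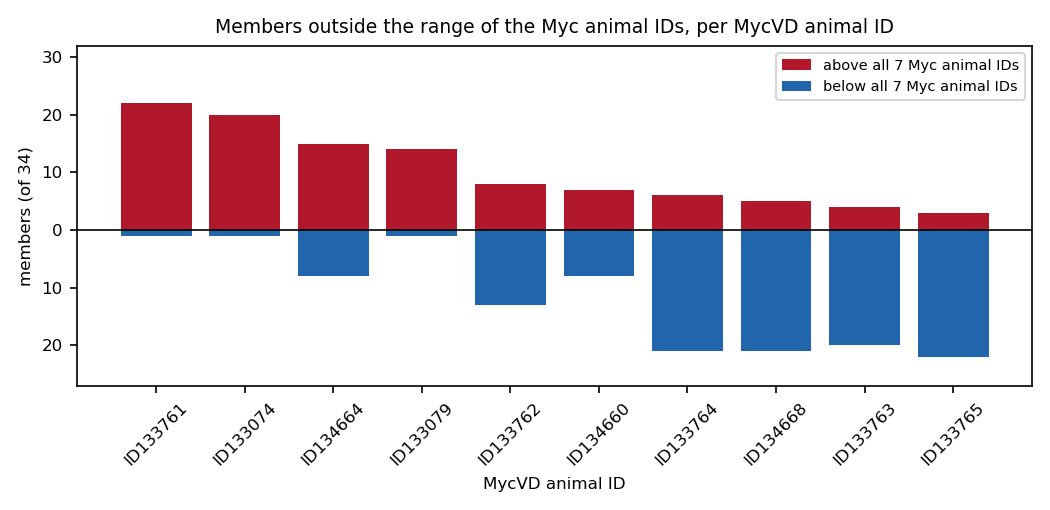
Number of the 34 genes (vertical axis, counted up and down from 0) whose level in each MycVD animal (horizontal axis) lay above (red) or below (blue) all 7 Myc animals. ID133761 and ID133074 had 22 and 20 genes above (23.5% and 19.0% of all genes), while ID133763, ID133764, ID133765 and ID134668 had 20 to 22 genes below (25.6% to 33.9% of all genes).

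Single MycVD animals differed strongly from each other. In ID133761 22 of the 34 genes lay above all 7 Myc animals and 1 lay below, where 23.5% of all genes lay above and 26.5% below. ID133074 had 20 above and 1 below (19.0% and 33.5% of all genes) and ID133079 had 14 above and 1 below (21.1% and 27.6%). At the other end ID133765 had 3 above and 22 below, where 19.1% of all genes lay above and 25.6% below. ID133764 and ID134668 each had 21 below and ID133763 had 20, against 29.9%, 25.6% and 33.9% of all genes. Irf7 averaged 32.7 eRPKM in ID133079, 26.2 in ID133761 and 21.6 in ID133074, against 5.33 to 9.19 eRPKM in ID133764, ID133763, ID134668, ID133765 and ID133762. Oas2 was at 6.48 eRPKM in ID133074 and at 0.144 eRPKM in ID133764. ID133074 and ID133079 are also libraries with low Gapdh, at 27.1 and 19.8 eRPKM, whereas ID133761 is not, and the part of the low-Gapdh libraries in these differences was not tested.

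**Figure D4:**
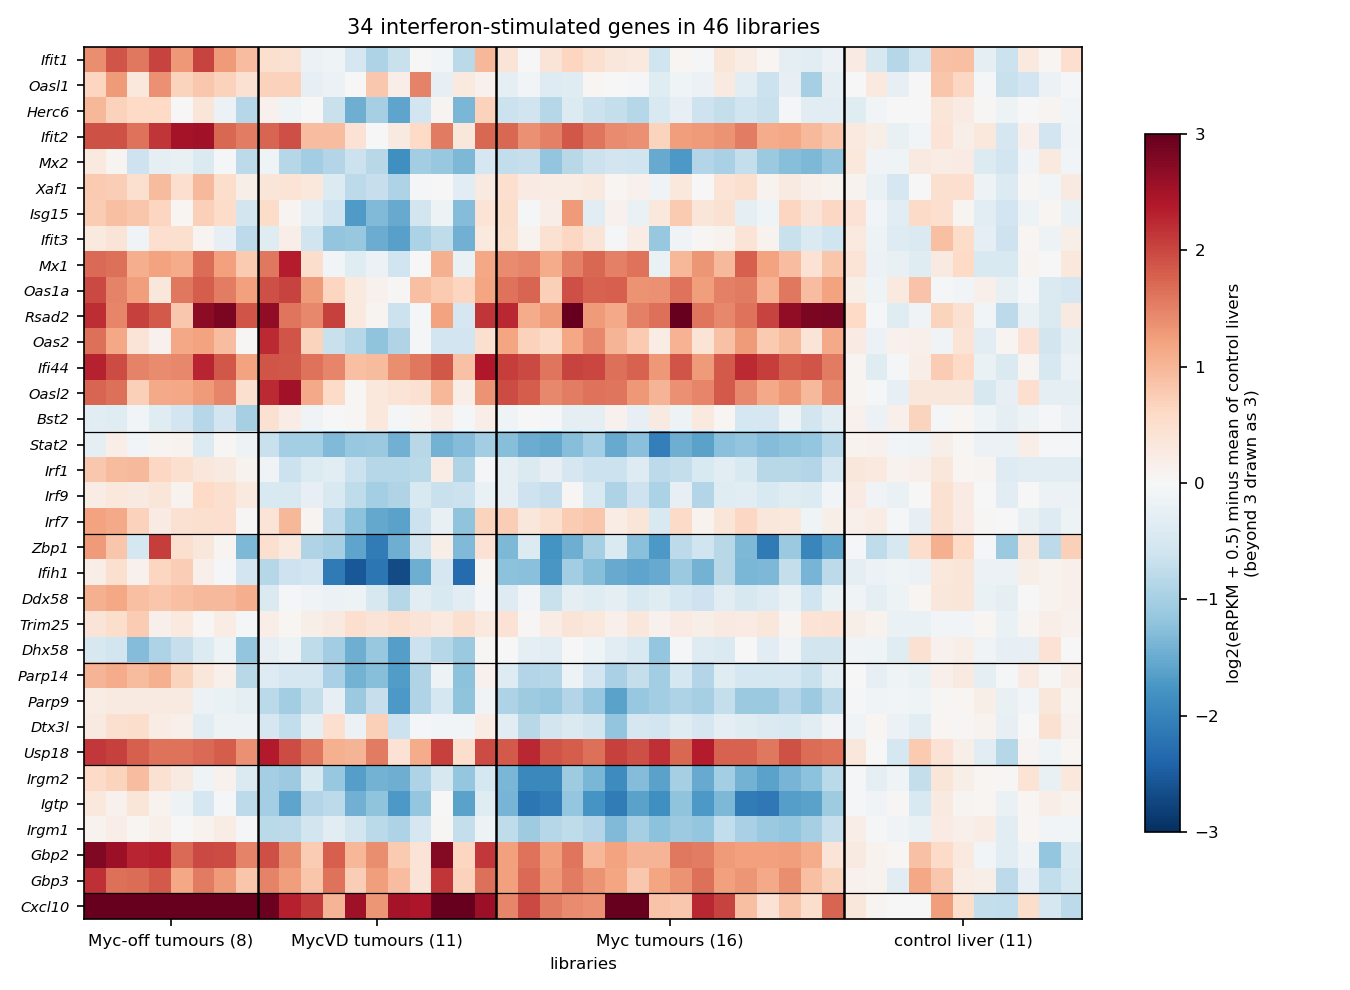
Level of each of the 34 genes (rows, by role) in each of the 46 libraries (columns, by group), as log2(eRPKM + 0.5) minus the control mean; differences beyond 3 are drawn as 3. All Myc-off columns are above all control columns for Cxcl10 and Gbp2, and MycVD columns differ among themselves in most effectors.

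The spread of the 34 genes between animals was widest in MycVD tumours. The median SD of log2 animal means was 0.27 in Myc-off tumours, 0.53 in MycVD tumours, 0.21 in Myc tumours and 0.32 in control livers, where the median over all genes was 0.21, 0.25, 0.17 and 0.24. The SD was larger in MycVD than in Myc animals for 32 of the 34 genes (94.1%) and for 11473 of 14566 genes (78.8%). MycVD animals mostly gave 1 tumour each, control animals 1 liver each, and Myc animals mostly several tumours, which were averaged. The part of this averaging in the differences of spread was not tested. Tumours of the same animal could differ too. Rsad2 ran from 10.2 to 49.7 eRPKM over the 4 tumours of Myc ID125320, a 4.89-fold range, and Cxcl10 was at 6.17 and 27.2 eRPKM in the tumours of Myc ID128992. For the median member the highest tumour of an animal was 1.18 to 1.69 times the lowest. Myc-off ID153344 C was the lowest of the 8 Myc-off libraries for 25 of the 34 genes, and control ID141041 was the lowest of 11 control livers for 15 and above the median for none.

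The interferon genes themselves were hardly detected. Only 1 of the 21 ligand genes measured passed the filter, Ifnk, a keratinocyte type I interferon, whose medians were 8.74 eRPKM in Myc-off tumours, 9.24 in MycVD tumours, 8.06 in Myc tumours and 8.22 in control livers and which was not called in any comparison. The other 20 never exceeded 1.35 eRPKM. Ifnb1 was at 0 in 38 of 46 libraries, and Ifng was at 0 in 24 and reached 0.960 eRPKM at most. For these 20 genes, levels at this depth gave no comparison between groups.

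Of the receptors and kinases that carry the signal, 8 of 10 tested genes were higher in Myc-off than in Myc tumours and none was lower by limma, also at an unadjusted p under 0.05. Over all genes, 22.8% were called higher and 28% lower. Jak2, the kinase of the type II receptor, was at 19.6, 21.4 and 28.9 eRPKM in Myc-off tumours and at 7.91, 10.4 and 16.5 eRPKM in Myc tumours (1.14 ± 0.14, adjusted p = 4.61e-08). Tyk2 rose by 0.81 ± 0.15 (adjusted p = 4.17e-05). Ifnlr1, the receptor of type III interferon, rose by 2.23 ± 0.40 (adjusted p = 2.24e-05) at low levels, with medians of 3.44 eRPKM in Myc-off tumours and 0.349 eRPKM in Myc tumours. Myc tumours had 4 of the 10 higher and 6 lower than control livers, where 50.4% of all genes were higher and 29.7% lower. Il10rb, a receptor chain shared with interleukins, was higher by 1.49 ± 0.10 (adjusted p = 2.29e-14), and Tyk2 (-0.61 ± 0.11, adjusted p = 4.09e-06) and Jak1 (-0.57 ± 0.07, adjusted p = 6.7e-09) were lower. In MycVD against Myc tumours Ifnlr1 (0.85 ± 0.28, adjusted p = 0.0388) and Jak1 (0.22 ± 0.07, adjusted p = 0.0326) were higher, and no other member of the list was called. Over all genes, 6.14% were higher and 9.69% lower between the alleles.

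Among 17 nucleic acid sensing genes, 8 were higher and 1 lower in Myc-off tumours than in Myc tumours, where 22.8% of all genes were higher and 28% lower. Ikbke, a kinase that activates interferon regulatory factors, was at 21.3, 37.5 and 50.2 eRPKM in Myc-off tumours and at 4.68, 6.74 and 12.9 eRPKM in Myc tumours (2.18 ± 0.21, adjusted p = 8.12e-10). The adaptor Myd88 rose by 1.29 ± 0.25 (adjusted p = 7.27e-05) and the RNA receptor Tlr3 by 1.21 ± 0.30 (adjusted p = 0.00112). Myc tumours had 5 sensing genes higher than control livers, led by Tlr7 (2.55 ± 0.15, adjusted p = 5.47e-16), and 7 were lower, among them Ikbke (-1.46 ± 0.15, adjusted p = 2.8e-10). Over all genes, 50.4% were higher and 29.7% lower there. Between the alleles 2 sensing genes were higher and 2 lower in MycVD tumours, with Ikbke at 0.52 ± 0.15 (adjusted p = 0.0209), where 6.14% of all genes were higher and 9.69% lower. Of 15 inhibitors of the pathway, 6 were higher and 5 lower in Myc-off tumours than in Myc tumours, where 22.8% of all genes were higher and 28% lower. Tnfaip3, which restrains NF-kappaB signalling, rose by 1.92 ± 0.23 (adjusted p = 2.51e-08) and Socs3, which inhibits Jak kinases, by 1.49 ± 0.53 (adjusted p = 0.0195), while Rnaseh2b, a subunit of the nuclease that clears RNA from DNA, fell by 1.02 on the log2 scale (SE 0.19, adjusted p = 3.16e-05). Relative to control livers 8 inhibitors were higher and 4 lower in Myc tumours, close to the 50.4% and 29.7% of all genes, with Rnaseh2b at 2.20 ± 0.13 (adjusted p = 6.35e-16) and Nlrx1 at -2.36 ± 0.14 (adjusted p = 2.55e-16). MycVD tumours had 2 of the 15 lower than Myc tumours, Adar (-0.45 ± 0.13, adjusted p = 0.0187) and Cyld (-0.25 ± 0.07, adjusted p = 0.0191).

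A list of 54 further interferon-stimulated genes had 22 higher and 1 lower in Myc-off than in Myc tumours, with a median log2 fold change of 0.57, where 22.8% of all genes were higher and 28% lower. Iigp1, an immunity-related GTPase, was at 27.6, 52.7 and 68.1 eRPKM in Myc-off tumours and at 7.78, 10.1 and 27.7 eRPKM in Myc tumours (2.10 ± 0.45, adjusted p = 0.000216). Its median in control livers was 98.3 eRPKM, well above that of Myc-off tumours. Gbp6 and Gbp10, which are near-identical copies and may share reads, rose by 2.16 ± 0.35 (adjusted p = 5.53e-06) and 2.10 ± 0.38 (adjusted p = 2.77e-05). Relative to control livers 20 of the 54 were higher and 23 lower in Myc tumours, where 50.4% of all genes were higher and 29.7% lower. Apol9b, another gene with a near-identical copy, was at 0.400, 0.963 and 6.90 eRPKM in Myc tumours and 51.2, 69.8 and 79.4 eRPKM in control livers. Its log2 fold change was -5.29 ± 0.36 (adjusted p = 1.33e-14). MycVD tumours had 3 of the 54 higher and 5 lower than Myc tumours, close to the 6.14% and 9.69% of all genes, led by Cxcl9 (1.19 ± 0.38, adjusted p = 0.0308) and Ifi27l2a (-0.86 ± 0.25, adjusted p = 0.0212).

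Interferon also induces the MHC class I pathway, through Irf1 and Nlrc5, and the class II pathway, through Ciita, which present peptides to T cells. Of 16 listed genes, 12 of class I and 4 of class II, Myc-off tumours had 8 of the 12 and 4 of the 4 higher than Myc tumours and none lower by limma, also at an unadjusted p under 0.05. Over all genes, 22.8% were called higher and 28% lower. Tapbp was at 65.1, 73.6 and 84.5 eRPKM in Myc-off tumours and at 14.5, 23.9 and 30.8 eRPKM in Myc tumours (1.62 ± 0.13, adjusted p = 6.12e-12). H2-K1, a class I heavy chain, rose by 1.16 ± 0.12 (adjusted p = 4.3e-09) and the immunoproteasome subunit Psmb8 by 1.03 ± 0.41 (adjusted p = 0.0371). In Myc tumours against control livers 10 of the 12 class I genes were lower and 1 higher, and 4 of the 4 class II genes were lower, where 29.7% of all genes were lower and 50.4% higher. Tap2 was at -2.25 ± 0.28 (adjusted p = 1.13e-08) and Nlrc5 at -1.73 ± 0.25 (adjusted p = 3.14e-07). In MycVD against Myc tumours 4 of the 12 class I and 4 of the 4 class II genes were higher and none lower, at an unadjusted p too. Over all genes, 6.14% were called higher and 9.69% lower. The class II genes had the largest rises, led by H2-Ab1 (1.09 ± 0.19, adjusted p = 0.000186), its chaperone Cd74 (1.08 ± 0.16, adjusted p = 3.42e-05) and the class II activator Ciita (0.81 ± 0.16, adjusted p = 0.000852). All MycVD animals lay above all Myc animals for these 3 genes.

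Markers of the cells in the tissue were read in the same comparisons. In Myc-off against Myc tumours 12 of 15 hepatocyte markers were higher and 1 lower, where 22.8% of all genes were higher and 28% lower. The summed level of the hepatocyte markers was 953 to 2314 eRPKM in Myc-off tumours, against 768 to 1312 eRPKM in Myc tumours. For the most abundant genes, however, eRPKM may not follow the amount of RNA. Eef1a1 stayed at 1364 to 1703 reads per kb over the libraries, while its eRPKM ran from 119 to 426. No gene exceeded 3067 reads per kb, and the 34 genes reached at most 909 (Bst2). The part of this limit in the hepatocyte sums and calls was not tested. Of the leukocyte and endothelial markers tested in that comparison, 3 of 17 macrophage genes, 2 of 13 T and NK cell genes, 1 of 5 B cell genes, 1 of 10 neutrophil genes and 3 of 12 endothelial genes were higher, 1 T and NK cell gene was lower, and none of 9 dendritic cell genes was called. The shares of higher genes in these lists were close to or below the 22.8% of all genes. The summed T and NK cell markers were at 26.3 to 90.4 eRPKM in Myc-off tumours, against 36.7 to 61.2 eRPKM in Myc tumours, so that their ranges overlapped. The macrophage sums were at 504 to 877 eRPKM in Myc-off tumours, against 445 to 736 eRPKM in Myc tumours, and the neutrophil sums at 113 to 452 eRPKM in Myc-off tumours, against 40.5 to 297 eRPKM in Myc tumours. The part of these cell types in the rise of the 34 genes was not tested.

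In Myc tumours against control livers more genes were called, with 50.4% of all genes higher and 29.7% lower. Of the hepatocyte markers 14 of 15 were lower and 1 higher, and their sum was 768 to 1312 eRPKM in Myc tumours, against 1574 to 2756 eRPKM in control livers. The limit on abundant genes applies to the hepatocyte markers here too. The endothelial sum was 80.6 to 162 eRPKM in Myc tumours, against 208 to 402 eRPKM in control livers, with 8 of 12 genes lower, whereas Emcn was higher (1.69 ± 0.13, adjusted p = 3.88e-13). The T and NK cell sum was 36.7 to 61.2 eRPKM in Myc tumours, against 14.7 to 23.0 eRPKM in control livers, with 8 of 13 genes higher and none lower, and 8 of 10 neutrophil and 10 of 17 macrophage markers were higher. For the T and NK cell and macrophage lists the share of higher genes was near that of all genes. The neutrophil marker Cxcr2 was lower (-0.30 ± 0.13, adjusted p = 0.0369), as were the macrophage markers Cd163, Vsig4 and Clec4f, the last 2 found on Kupffer cells. Of the B cell markers 2 of 5 were higher and 2 lower, and of the dendritic cell markers 2 of 9 were higher and 3 lower. Afp, the fetal liver protein, had medians of 188 eRPKM in Myc-off tumours, 125 in MycVD tumours, 106 in Myc tumours and 12.5 in control livers. Between MycVD and Myc tumours 6 hepatocyte, 2 macrophage and 1 dendritic cell markers were higher in MycVD tumours, and 4 macrophage, 3 T and NK cell, 3 endothelial, 1 B cell and 1 dendritic cell markers were lower. Over all genes, 6.14% were higher and 9.69% lower there. The dendritic cell list includes Bst2, which is itself one of the 34 genes. No marker of the 7 lists was at 0 in all libraries of a group, and the part of these cells in the comparisons of tumours with control livers was not tested.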

How the data were processed

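Total RNA of liver or tumour was depleted of ribosomal RNA and made into libraries by an unstranded kit (TruSeq RNA v2), per the labels' protocols. The authors deposited 1 table of exonic RPKM for 21671 genes and 46 libraries. The submitters' processing notes list TopHat, TopHat2 2.0.8 and build mm9. The counter and annotation used were not given in the sources at hand. RPKM steps gave whole reads for 18626 genes within 0.001 reads, and from them the depth, given with the groups, which limits the precision of low genes. Tests ran on log2(RPKM + 0.5), as RPKM are not counts. None of 258 pairs of libraries within a group agreed within counting noise, with chi-square values of at least 3.24 per degree of freedom.

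Libraries with the same ID were averaged, giving 31 animal IDs. limma 3.58.1 (R 4.3.3; trend, two-sided, Benjamini-Hochberg over 14566 genes with at least 1 RPKM in at least 3 IDs) fitted the 4 groups together, after a check on simulated data. Adjusted p-values in the text come from it. They weigh a difference between groups against the spread between IDs pooled over the 4 groups, not over the compared groups alone. That spread was unequal for the members. Their median log2 SD was 0.27 in Myc-off tumours, 0.53 in MycVD tumours, 0.21 in Myc tumours and 0.32 in control livers. Genes named in every comparison are Irf7, Irf9, Stat2, Irf1, Ifit1, Isg15, Bst2 and Igtp, with up to 6 called members of the largest rise and fall and 3 called genes of each pathway list; others were named after their values were seen, and 1 gene of the rule is not reported here. The members and lists were chosen with earlier results of these data known. Alternatives were 10 planned settings, 3 added after seeing the data, and leaving out each of the 31 IDs. Promoter sequences are RefSeq's (GRCm38.p6), and no mm9 coordinates were used. Python 3.11.15 and pandas 2.3.3 made the summaries.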

Additional observations from a re-analysis of the deposited data

Results flagged for a closer look

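In 4 genes 1 MycVD animal stood apart from the other 9 by a gap larger than Dixon's test allows. Stat2 was at 22.1 eRPKM in ID133074, against 12.9 to 17.3 eRPKM in the others. Mx1, a dynamin-like antiviral GTPase, was at 9.44 eRPKM in ID133079, against 1.00 to 5.29 eRPKM. Ifi44 was at 8.23 eRPKM in ID133761, against 2.52 to 5.55 eRPKM, and Cxcl10 at 38.8 eRPKM in ID134664, against 4.76 to 22.1 eRPKM. Chance gives such a gap in about 1 of 20 groups, and 68 groups of Myc or MycVD animals were looked at. ID133074 and ID133079 are libraries with low Gapdh.

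For 7 genes the difference between the MycVD and Myc alleles passed limma's test, 3 of the 34 higher and 4 lower. These counts were close to the shares of all genes, 6.14% higher and 9.69% lower. Igtp (log2 difference 0.67, adjusted p = 0.00749), Irgm1 (0.45, adjusted p = 0.00262) and Bst2 (0.35, adjusted p = 0.027) were higher in MycVD tumours. Dhx58 (-0.49, adjusted p = 0.0452), Isg15 (-0.72, adjusted p = 0.0478), Irf7 (-0.77, adjusted p = 0.0402) and Ifit3 (-0.81, adjusted p = 0.0197) were lower, and 0 of these 4 calls held with depth as a covariate and 1, that of Ifit3, with median-ratio scaling.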

How the results depend on the processing

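Over 152 pairs of a named gene and a comparison, 4440 settings were computed, of which 4268 kept direction and side of the threshold, 35 passed it newly, 123 no longer passed and 14 changed sign. The changes of sign were all in genes that did not pass the test. In Myc tumours against control livers these were Ifit1 (-0.10 with median-ratio scaling, -0.34 with quantile normalisation and -0.054 with depth as a covariate), Isg15 (-0.055, -0.065 and -0.077 in the same 3 settings), Bst2 (0.073 with quantile normalisation) and Irf7 (-0.19 with depth). In the other comparisons they were Irf7 in Myc-off against Myc tumours (-0.030 without ID150584, up to 0.31 without the other animals in turn), Irf9 in MycVD against Myc tumours (0.021 with depth), Bst2 in MycVD tumours against control livers (-0.074 with median-ratio scaling), and, in Myc-off tumours against control livers, Igtp (0.11 with quantile normalisation and -0.22 to 0.12 over the animals left out, the last without ID153344) and Stat2 (0.025 without ID153344). The causes were not tested.

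Counts of the 34 genes moved by over 1.5 times in 3 comparisons, in Myc-off tumours against control livers only without ID153344 (1 lower, against 2). Members called lower in Myc-off against Myc tumours were 1, against 0, with quantile normalisation, with tumours kept separate and correlated within an ID, with array weights and with only the 2 groups fitted. Members called lower in MycVD against Myc tumours were 1 without a filter on low values, 1 with median-ratio scaling, 2 with quantile normalisation, 0 with depth, 13 with array weights, 11 without the libraries of low Gapdh and 1 with only the 2 groups fitted. Members called higher there were 5 with quantile normalisation, 6 with tumours kept separate and 6 with array weights. Leaving out 1 animal at a time gave 14 to 19 higher and 0 lower in Myc-off against Myc tumours, 12 higher and 14 to 15 lower in Myc tumours against control livers, 2 to 4 higher and 1 to 8 lower in MycVD against Myc tumours, 10 to 12 higher and 13 to 17 lower in MycVD tumours against control livers, and 14 to 18 higher and 1 to 2 lower in Myc-off tumours against control livers. Leaving out a Myc-off animal left 2 in that group, with the spread taken from all groups.

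No paired analysis was possible because the groups share no animal IDs. Of 36 levels compared under median-ratio scaling, 2 moved by more than the SD between animals, those of Stat2 (40.3 eRPKM, against 34.5 as deposited) and Igtp (71.6, against 63.1) in control livers. The main limits are the 3 Myc-off animals, doxycycline given to that group alone, age and sex, which the labels do not give, and the shallowest Myc-off library, at 3.25 M reads. The lowest members, Oas2 among them, rest on as few as 5 reads in a library.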

Other observations

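Zbp1 divided the control livers by the level of Xist, the RNA of the inactive X chromosome in female mice. In the 5 control livers with Xist above 10 eRPKM it was at 5.10, 6.20 and 8.69 eRPKM (lowest, median and highest), and in the other 6 at 1.54, 2.37 and 3.76 eRPKM, without overlap. In Myc-off tumours it was at 2.56 to 18.2 eRPKM in 5 libraries with Xist above 10 eRPKM and at 1.24 to 5.07 eRPKM in the other 3. In MycVD tumours these values were 0.533 to 5.67 eRPKM in 6 libraries and 1.70 to 5.42 eRPKM in 5, and in Myc tumours 0.514 to 2.42 eRPKM in 9 libraries and 0.763 to 2.80 eRPKM in 7. With Xist above 10 eRPKM first, the medians were 7.40 and 4.18 eRPKM in Myc-off tumours, 1.19 and 4.47 in MycVD tumours and 1.24 and 1.34 in Myc tumours. The order was thus reversed in MycVD tumours, and the medians were nearly equal in Myc tumours. The 3 Myc-off libraries with Xist at most 10 eRPKM were all tumours of 1 animal, ID153344. By animal average, Xist was above 10 eRPKM in 2 of 3 Myc-off, 5 of 10 MycVD and 4 of 7 Myc IDs. Libraries of 1 animal are not independent. The pattern was noticed after its values were seen and was not tested.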
